A study of Mus musculus with 14 samples.

Results

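Fetal urogenital epithelium (UGE) was compared here with adult prostate cells that carry a medium to low level of the surface antigen Sca-1 (Sca-1Lo). Samples were taken by their labels, 3 of UGE and 4 of Sca-1Lo, which together are 7 of the 14 samples of the study, and 17149 genes were described. UGE was the epithelial layer taken from the urogenital sinus of C57BL/6 embryos at 16 days, and the labels give no sex for it. Sca-1Lo cells came from the prostates of adult males, which the labels list as C57BL at 6 to 8 weeks and the methods as C57BL/6 at 6 weeks. The proximal ducts, which lie next to the urethra, were digested, and cells were sorted by FACS on Sca-1 fluorescence into a gate that is enriched in transit-amplifying cells. UGE was isolated as a tissue layer and, per the methods, was not selected on Sca-1. No mutation and no treatment is listed for either group. Age, region of the gland and sorting differ together between the groups and cannot be told apart. Sex may differ with them, as that of the embryos is not given. Whether UGE was also digested is not stated in the methods.

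The prostate forms when buds of the urogenital sinus epithelium grow into the surrounding mesenchyme under the action of androgen. Hedgehog, Wnt, FGF and BMP signals pass between epithelium and mesenchyme during this growth. In the adult gland, basal and luminal cells line the ducts, and luminal cells secrete the proteins of the prostatic fluid under androgen control. Transit-amplifying cells stand between the stem cell and the differentiated cell and divide for a limited time.

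Each sample was hybridized to an Affymetrix MOE430 2.0 array. A level is given as the PLIER signal, a model-based brightness on a linear scale, of the probe set that stands for the gene. Signals of different genes are not set against each other, because probe sets differ in brightness. A gene was called higher or lower in UGE where the Benjamini-Hochberg adjusted p of limma lay under 0.05 and the change exceeded 1.75-fold. A signal of 20 was used as a floor, and where all arrays of a group or their mean lay at or under it the fold is given as a lower bound against it. For *Crabp2*, *Irf7* and *Plvap*, whose mean lay under the floor on the log scale only, the bound is taken with every signal under 20 raised to 20. The replicates are numbered in the labels with no word on separate animals or dissections, so the p-values measure the spread between these samples only, which may be technical.

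Some arrays stood apart within their group. The first principal component of the 7 arrays held 60.4% of the variance and separated UGE from Sca-1Lo. The second held 22.5% and separated Sca-1Lo replicates 1 and 2 (43.02 and 125.6) from replicates 3 and 4 (-102.5 and -84.07). It also spread the UGE arrays, with replicates 1, 2 and 3 at 65.65, -46.35 and -1.316. Between these pairs of Sca-1Lo arrays 770 genes differed by over 4-fold, 469 of them higher in replicates 3 and 4. UGE replicate 1 carried more signal of other tissues than replicates 2 and 3. Its summed signal of 14 nerve and glia genes was 77435, against 2749 and 2755 in UGE replicates 2 and 3, and 1142 to 1234 in Sca-1Lo cells. Counts were therefore repeated without UGE replicate 1 and with either pair of Sca-1Lo arrays alone, and moves by over 1.5 times in list counts of over 5 genes are printed beside the result, with some of those in smaller counts. The log2 ratio of 3' to 5' signal of the *Gapdh* array control, a measure of RNA integrity, was 1.83, 2.38 and 2.29 in UGE, against 2.54, 1.98, 3.1 and 3.22 in Sca-1Lo cells. That of the *Actb* control was 1.54, 2.09 and 2.09 in UGE, against 2.27, 1.8, 1.91 and 1.72 in Sca-1Lo cells, and overlapped between the groups. The part of RNA integrity in the results was not tested.

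**Figure D1:**
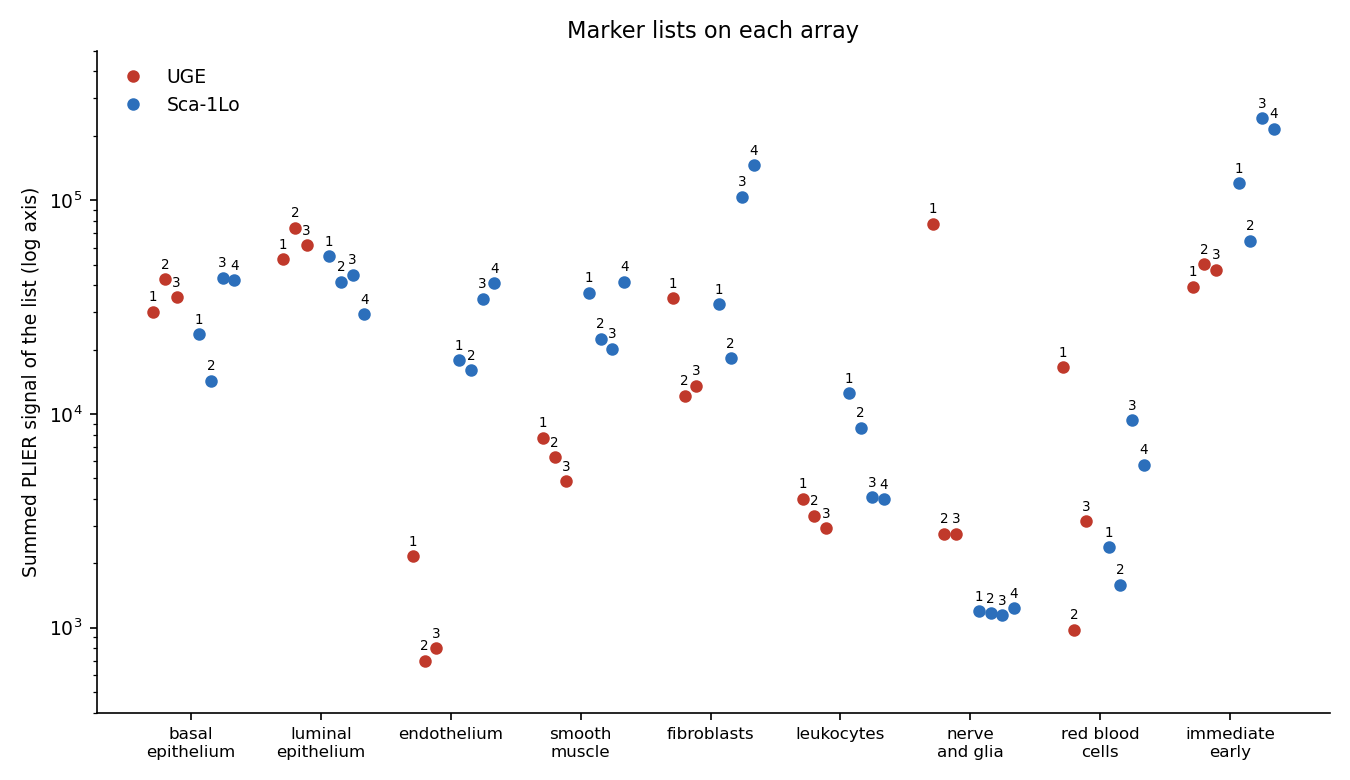
Summed PLIER signal (log axis) of 9 lists of marker genes on each of the 3 UGE and 4 Sca-1Lo arrays, 1 point for each array. Epithelial lists overlap between the groups, endothelial genes are lower on every UGE array, and the nerve and glia sum of UGE replicate 1 is 77435.

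Both groups carried the signals of epithelium. The keratin gene *Krt8* of simple epithelium had signals of 8172, 11140 and 9219.9 in UGE, against 7474, 4865, 7453 and 4985 in Sca-1Lo cells. *Krt5*, the keratin of basal cells, had 6090.2, 8559 and 7072 in UGE, against 4468, 2076, 7133 and 7025 in Sca-1Lo cells. *Epcam*, an adhesion molecule of epithelia, had 1959, 1706 and 1969 in UGE, against 2290.4, 1745, 1055 and 572 in Sca-1Lo cells. None of these 3 genes was called, with log2 differences (UGE minus Sca-1Lo) of 0.64, 0.63 and 0.59 and adjusted p of 0.2, 0.53 and 0.431 by limma. *Krt8* was above all Sca-1Lo arrays on the 3 UGE arrays, and the other genes overlapped.

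Of 41031 probe sets tested, 4673 were higher in UGE (11.4%) and 4320 lower (10.5%), and 14590 had an unadjusted p under 0.05. For genes, 2300 of 17149 were higher (13.4%) and 2085 lower (12.2%), and the median log2 difference of all genes was -0.04. The typical change was larger on the lower side, with a median size of 1.96 on the log2 scale for genes called lower and 1.46 for genes called higher. Past 16-fold, with signals under the floor raised to it, lay 73 genes that were higher and 210 that were lower. UGE lay at the floor in 651 of the genes called lower, and Sca-1Lo in 164 of those called higher. The 3 UGE arrays lay beyond all 4 Sca-1Lo arrays in 2270 of the genes called higher and in 1993 of those called lower. Without UGE replicate 2 the genes called higher numbered 1513, and without UGE replicate 3 those called lower numbered 1349. With Sca-1Lo replicates 3 and 4 alone 1393 genes were higher. When each array was scaled to its 75th percentile, 41.69% of the calls were toward higher signal, against 51.96% as deposited, so the balance between the directions depended on the scaling. Where 0 genes of a list are given below as moving one way, the count on that side at an unadjusted p under 0.05 was also 0, except for 1 chromatin regulator, 4 Wnt ligands and 1 glycolysis gene on the lower side and 1 interferon gene on the higher side. In samples of mixed cells, fewer cells of a type and less RNA per cell cannot be told apart, which holds for every difference below.

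**Figure D2:**
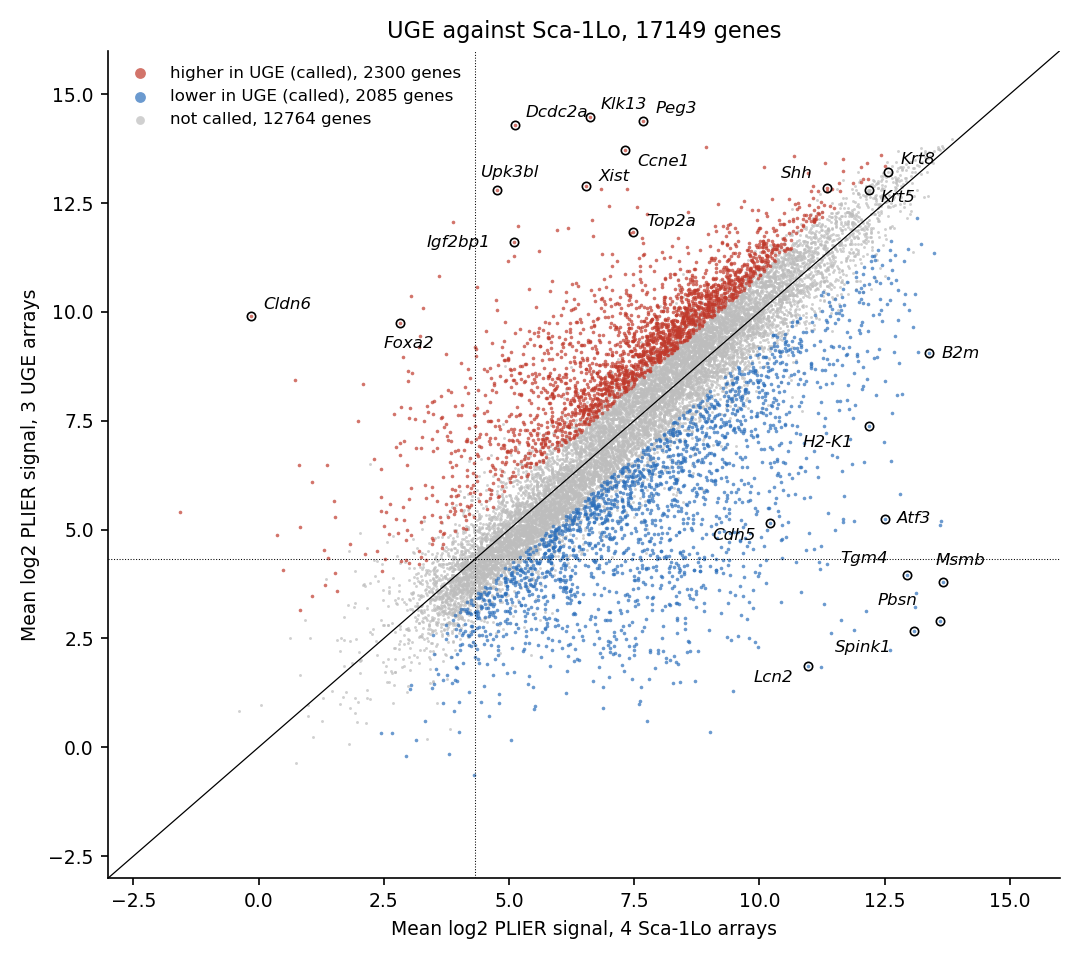
Mean log2 PLIER signal of each of 17149 genes in UGE (vertical axis, 3 arrays) against Sca-1Lo cells (horizontal axis, 4 arrays). Colours mark the 2300 genes called higher and the 2085 called lower in UGE, and circled genes are named in the text.

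The genes with the largest increase in UGE came from several unrelated groups. *Dcdc2a*, a member of the doublecortin family that binds microtubules, had signals of 20040, 10932 and 36795 in UGE, against 44.2, 37.6, 25.9 and 34.7 in Sca-1Lo cells, a 573-fold difference (log2 difference 9.16 ± 0.40 SE, adjusted p = 1.22e-08). It is measured by 2 probe sets, of which only the brighter was called. *Upk3bl*, a relative of the uroplakins that coat the urinary epithelium, had 6121, 10739 and 5644 in UGE, against 26.9, 42.4, 19.5 and 23.8 in Sca-1Lo cells (266-fold higher, log2 difference 8.06 ± 0.42 SE, adjusted p = 4.24e-08). *Klk13*, a secreted kallikrein protease, had 16786, 34609 and 20305 in UGE, against 54.6, 321, 67.8 and 78.4 in Sca-1Lo cells (232-fold higher, log2 difference 7.86 ± 0.96 SE, adjusted p = 5.74e-05). Sca-1Lo replicate 2 was the highest of its group for this gene and still lay far below all UGE arrays. *Krt75*, a keratin of hair follicles, was at least 216-fold higher, *Neto2*, an auxiliary subunit of kainate receptors, at least 90.8-fold higher and the amino acid transporter gene *Slc38a4* 110.4-fold higher (log2 differences 8.19, 7.23 and 6.79). For each of these the Sca-1Lo arrays lay at or little above the floor, and the groups did not overlap.

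Secreted products of the adult male accessory glands fell most. Of 19 such genes measured, 16 were lower in UGE and 1 higher, with a median log2 difference of -7.99, or -6.96 with genes at the floor set to their bound. *Pbsn* encodes probasin, an androgen-dependent protein of the prostatic fluid, and its signal was 8.79, 13.5 and 3.46 in UGE, against 16869, 14857, 9067 and 10941 in Sca-1Lo cells (at least 628-fold lower, log2 difference -10.72 ± 0.41 SE, adjusted p = 2.74e-09). *Msmb*, which encodes a microseminoprotein, had 14.1, 30.7 and 6.19 in UGE, against 15053, 15228, 10172 and 12586 in Sca-1Lo cells (at least 567-fold lower, log2 difference -9.88 ± 0.45 SE, adjusted p = 1.65e-08). *Spink1*, a trypsin inhibitor, had 3.64, 9.93 and 7.01 in UGE, against 9997, 9429, 7611 and 7984 in Sca-1Lo cells (at least 435-fold lower, log2 difference -10.42 ± 0.34 SE, adjusted p = 6.95e-10). UGE lay at or near the floor in all 3 genes, and the groups did not overlap. *Tgm4*, the transglutaminase that helps to form the copulatory plug, had 7.25, 38.5 and 13.3 in UGE, against 12251, 10846, 5672 and 5194 in Sca-1Lo cells (at least 318-fold lower), and *Pigr*, which carries antibodies across epithelia, had 8.45, 16.1 and 10.6 in UGE, against 1988, 1406, 356 and 295 in Sca-1Lo cells (at least 36.8-fold lower). *Tgm4* and *Pigr* were both lower on Sca-1Lo replicates 3 and 4 than on replicates 1 and 2, and the groups did not overlap. Seminal vesicle proteins were among the members: *Svs2* was at least 314-fold lower, *Svs5* 364-fold lower and *Svs4* 344-fold lower, although Sca-1Lo cells were labelled as prostate. The member that rose was *Wfdc2*, a small secreted protein of epithelia, with 2294, 3184 and 3484 in UGE, against 1252, 1075, 1759.8 and 687 in Sca-1Lo cells (log2 difference 1.38 ± 0.42 SE, adjusted p = 0.0283). Its call was lost when any 1 of UGE replicates 2 or 3 or Sca-1Lo replicates 1, 2 or 4 was left out (adjusted p = 0.0501 to 0.11).

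Regulators of the secretory state were lower as well. Among 17 regulators of prostate lineage and androgen response, 7 were lower and 2 higher in UGE, with a median log2 difference of -1.22, and 1 was higher without UGE replicate 2 or 3 or Sca-1Lo replicate 1 or 2. *Spdef*, an ETS factor of secretory epithelium, had 7.22, 7.56 and 3.36 in UGE, against 527, 579, 159 and 104 in Sca-1Lo cells (at least 13.3-fold lower, log2 difference -5.55 ± 0.82 SE, adjusted p = 0.000274). *Bhlha15* (Mist1), which sets up the secretory apparatus, had 18, 27.5 and 30.1 in UGE, against 2206, 1856, 347 and 389 in Sca-1Lo cells (35-fold lower, log2 difference -5.13 ± 0.75 SE, adjusted p = 0.000248). Both had the higher Sca-1Lo levels on replicates 1 and 2, and all UGE arrays lay below all Sca-1Lo arrays. *Fkbp5*, a cochaperone gene induced by androgen and glucocorticoid, was 5.71-fold lower, and *Steap4*, a metalloreductase gene that responds to androgen, 12.6-fold lower (adjusted p = 0.00294 and 0.000515, limma). The pioneer factor *Foxa1* had 4584, 7895 and 6862 in UGE, against 4373, 3256, 7649.9 and 5514 in Sca-1Lo cells, which overlapped and was not called (log2 difference 0.34, adjusted p = 0.658). *Foxa2*, its relative of embryonic endoderm, had 604, 1482 and 708 in UGE, against 6.84, 10.2, 4.7 and 7.72 in Sca-1Lo cells (at least 42.9-fold higher, log2 difference 6.92 ± 0.52 SE, adjusted p = 1.02e-06). The prostate homeobox gene *Hoxb13* had 717, 1888 and 748 in UGE, against 3472, 2862, 2616 and 2300.3 in Sca-1Lo cells, with the groups apart but no call (log2 difference -1.47, adjusted p = 0.129).

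**Figure D3:**
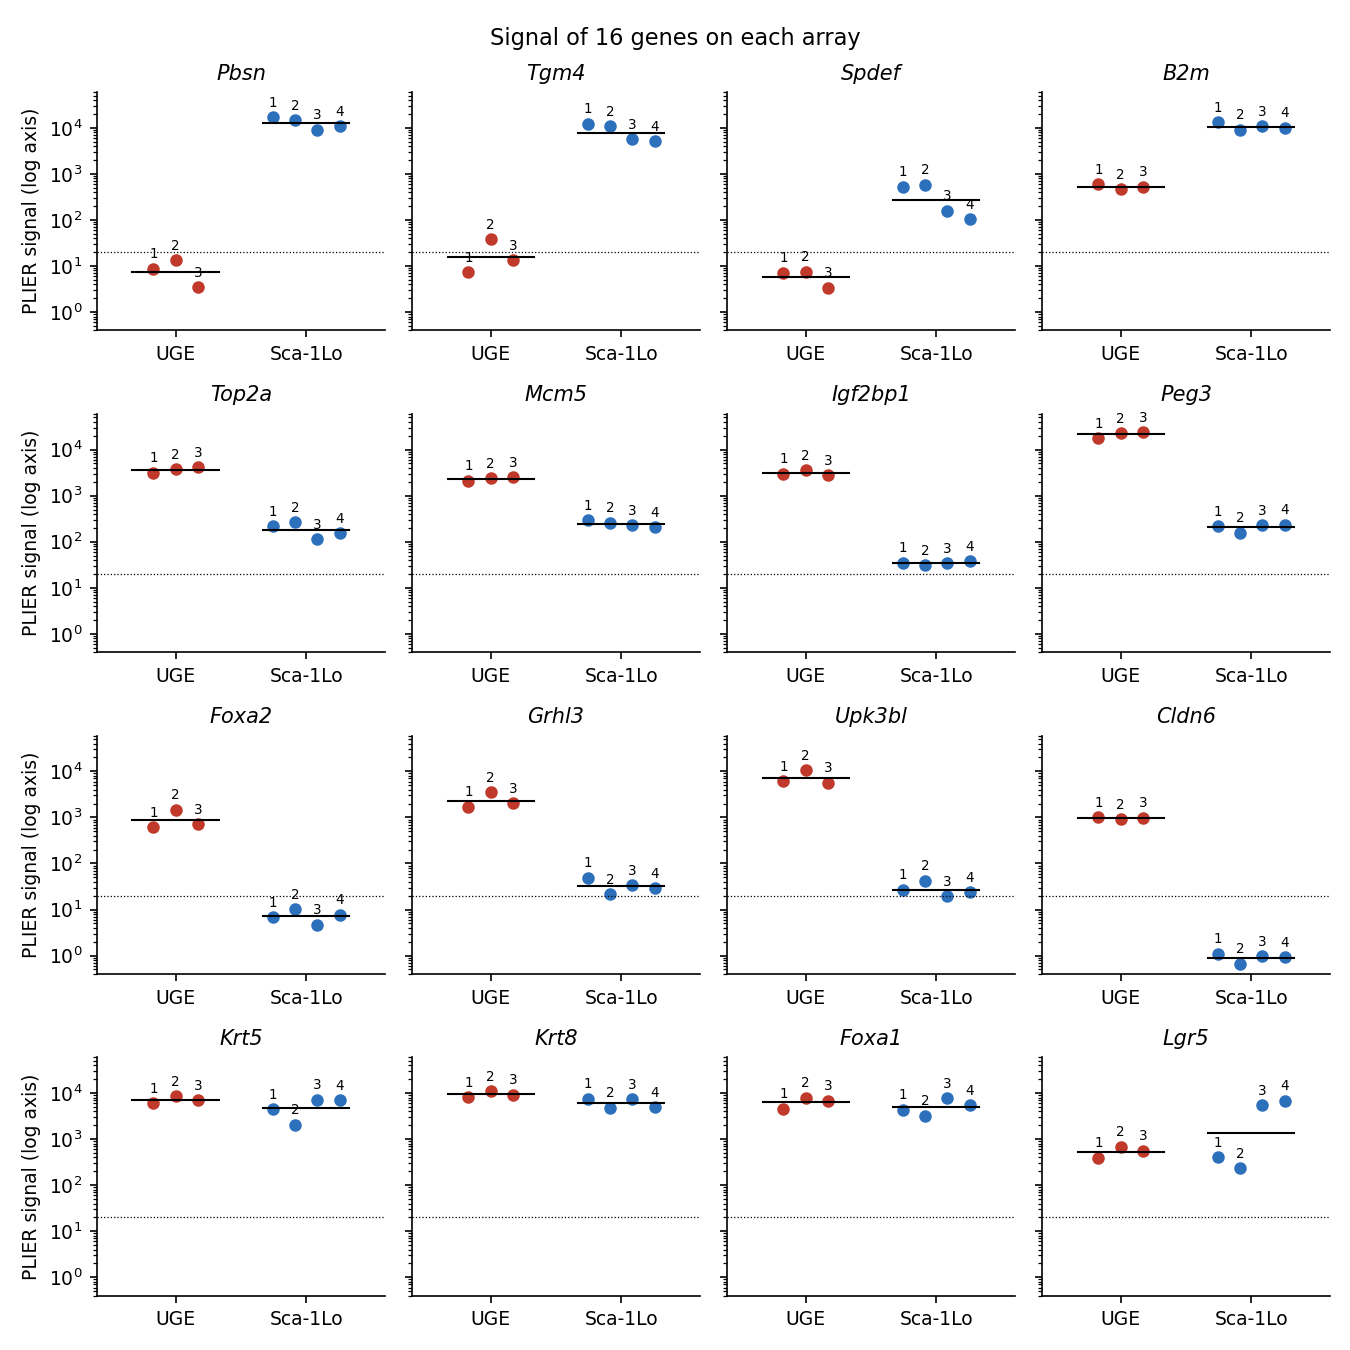
PLIER signal (log axis) of 16 genes, with UGE (3 arrays) on the left and Sca-1Lo (4 arrays) on the right of each panel, 1 point for each array. The groups do not overlap for the secretory, antigen presentation, cell cycle and fetal genes, and they overlap for *Krt5*, *Foxa1* and *Lgr5*.

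Cell division genes were higher in UGE almost as a whole. Of 57 mitosis genes measured, 51 rose and 0 fell by limma, with a median log2 difference of 3.46, and 49 to 53 rose when either pair of Sca-1Lo arrays was used. *Cdk1*, the kinase that starts mitosis, had signals of 1546, 2202 and 1927 in UGE, against 214, 251, 87.5 and 141 in Sca-1Lo cells (11.7-fold higher, log2 difference 3.54 ± 0.40 SE, adjusted p = 3.14e-05). *Top2a*, which untangles replicated chromosomes, had 3136, 3709.6 and 4118 in UGE, against 219.6, 267, 115 and 153 in Sca-1Lo cells (20.3-fold higher, log2 difference 4.34 ± 0.37 SE, adjusted p = 2.76e-06). *Mki67*, the Ki-67 antigen of dividing cells, had 2635, 3594 and 3858 in UGE, against 242, 279, 126 and 200.3 in Sca-1Lo cells (16.4-fold higher, log2 difference 4.03 ± 0.35 SE, adjusted p = 3.64e-06). In all 3 genes every UGE array exceeded the highest Sca-1Lo array, and Sca-1Lo replicates 1 and 2 lay above replicates 3 and 4. The spindle checkpoint kinase gene *Bub1* was 29.1-fold higher, *Cenpf*, of the kinetochore, 17.3-fold higher, the mitotic kinase gene *Plk1* 12-fold higher and *Aurka*, a kinase of the spindle poles, 10.6-fold higher. *Foxm1*, the factor that drives the transcription of mitotic genes, was among the 6 not called, at 124, 107 and 110.5 in UGE, against 74, 85.2, 50.6 and 65.4 in Sca-1Lo cells (log2 difference 0.75, adjusted p = 0.0318), a change short of 1.75-fold. One of the 3 probe sets of *Foxm1* was called higher.

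The promoters of mitosis genes are known to carry CCAAT boxes, which bind NF-Y, and cell cycle homology regions, of which TTTGAA is a form. Windows of 300 bases, from 250 before to 50 after the start site, were found in RefSeq for 44 of the 51 mitosis genes called higher, as 47 windows. CCAAT was present on either strand in 36 of them (76.6%) and in 37.4% of all 32851 windows of mouse genes. TTTGAA was present in 33 (70.2%), against 17.9% of all windows. Windows of *Cdk1*, *Top2a* and *Mki67* are printed because they hold several copies each, and they were chosen for this after their values were seen. Capitals mark CCAAT and TTTGAA on the printed strand and their reverse complements ATTGG and TTCAAA. Positions are those of GRCm38.p6, and each window is written 5' to 3' on the strand of its gene.
Cdk1 (chr10:69352863-69353162, minus strand): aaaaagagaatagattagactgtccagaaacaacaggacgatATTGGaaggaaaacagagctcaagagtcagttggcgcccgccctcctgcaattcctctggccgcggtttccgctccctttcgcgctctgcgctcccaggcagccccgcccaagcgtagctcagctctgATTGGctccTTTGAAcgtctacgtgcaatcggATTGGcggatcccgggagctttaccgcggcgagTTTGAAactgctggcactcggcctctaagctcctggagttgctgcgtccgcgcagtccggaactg
Top2a (chr11:99024140-99024439, minus strand): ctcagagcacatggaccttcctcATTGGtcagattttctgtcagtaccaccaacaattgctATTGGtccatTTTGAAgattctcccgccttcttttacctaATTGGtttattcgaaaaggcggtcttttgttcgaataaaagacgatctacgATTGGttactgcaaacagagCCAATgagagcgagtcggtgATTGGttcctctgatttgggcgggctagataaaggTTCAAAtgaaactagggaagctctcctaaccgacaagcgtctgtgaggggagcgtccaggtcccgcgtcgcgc
Mki67 (chr7:135716330-135716629, minus strand): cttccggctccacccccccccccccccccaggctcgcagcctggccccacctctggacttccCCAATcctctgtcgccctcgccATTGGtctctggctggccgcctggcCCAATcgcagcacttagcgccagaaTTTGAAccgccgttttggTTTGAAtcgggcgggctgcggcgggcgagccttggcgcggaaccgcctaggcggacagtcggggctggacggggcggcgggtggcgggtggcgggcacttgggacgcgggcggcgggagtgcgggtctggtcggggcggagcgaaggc
The window of *Cdk1* holds 5 motifs, that of *Top2a* 8 and that of *Mki67* 5. Counted from the start site, those of *Cdk1* begin at -208, -80, -71, -48 and -15. A match describes the letters only and does not show that a factor was bound.

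DNA replication genes followed the same direction. Of 48 genes of replication and nucleotide supply, 42 rose and 0 fell in UGE by limma, with a median log2 difference of 1.83. *Mcm5*, a subunit of the replicative helicase, had 2097, 2371 and 2539.8 in UGE, against 297, 256, 231 and 206 in Sca-1Lo cells (9.49-fold higher, log2 difference 3.25 ± 0.24 SE, adjusted p = 9.46e-07). *Cdc6*, which loads that helicase at origins, had 344, 473 and 423 in UGE, against 58.4, 46.8, 18.3 and 22.6 in Sca-1Lo cells (12.6-fold higher, log2 difference 3.65 ± 0.40 SE, adjusted p = 2.28e-05). *Ccne1*, the cyclin of S phase entry, had 10765, 13460 and 17264 in UGE, against 144, 677, 80.5 and 83.8 in Sca-1Lo cells (84.8-fold higher, log2 difference 6.41 ± 0.98 SE, adjusted p = 0.000383). The 3 UGE arrays lay above all Sca-1Lo arrays in each. *Pcna*, the sliding clamp, had the smallest change of those named, with 4406, 4214 and 5158 in UGE, against 1838, 1489.5, 1764 and 1856 in Sca-1Lo cells (2.64-fold higher, log2 difference 1.40 ± 0.20 SE, adjusted p = 0.000236). Replication genes are known targets of E2F factors, and TTTCCCGC and TTTGGCGC are forms of the E2F site. Of the 42 genes called higher 34 had a window, 40 windows in all. TTTCCCGC was present on either strand in 5 of them (12.5%), against 1.07% of all windows, and TTTGGCGC in 6 (15%), against 0.514%. Either form was present in 10 of the 40 windows (25%), against 1.56% of all windows. The 2 windows below carry 1 motif each, in capitals, as its reverse complement (GCGCCAAA and GCGGGAAA). They were printed because they hold a motif, and were also chosen after their values were seen.
Mcm5 (chr8:75109259-75109558, plus strand): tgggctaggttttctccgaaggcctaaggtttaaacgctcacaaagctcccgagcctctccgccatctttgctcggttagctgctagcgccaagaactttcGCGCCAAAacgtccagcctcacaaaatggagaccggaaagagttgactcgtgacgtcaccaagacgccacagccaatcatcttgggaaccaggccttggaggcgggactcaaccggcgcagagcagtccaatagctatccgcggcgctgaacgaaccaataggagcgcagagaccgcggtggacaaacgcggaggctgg
Cdc6 (chr11:98907901-98908200, plus strand): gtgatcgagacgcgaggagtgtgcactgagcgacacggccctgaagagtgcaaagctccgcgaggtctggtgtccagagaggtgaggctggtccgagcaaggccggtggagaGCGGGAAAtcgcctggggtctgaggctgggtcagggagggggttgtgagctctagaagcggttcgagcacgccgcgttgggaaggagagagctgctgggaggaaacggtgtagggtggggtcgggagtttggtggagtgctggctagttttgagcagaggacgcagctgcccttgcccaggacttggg
The motif of *Mcm5* begins at -149 from the start site and that of *Cdc6* at -138.

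**Figure D4:**
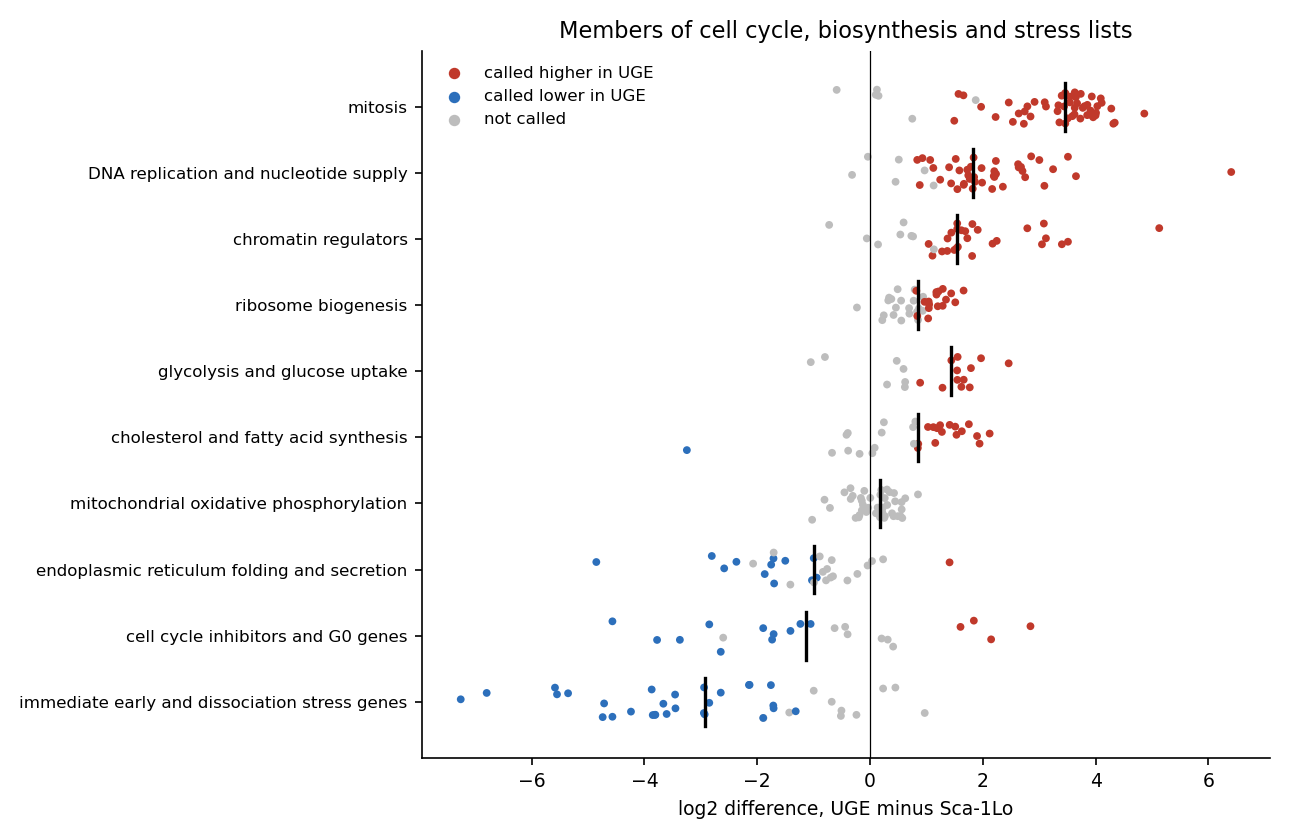
Log2 difference (UGE minus Sca-1Lo) of every measured member of 10 gene lists, 1 point for each gene, coloured by its call, with the list median as a black bar. The median is 3.46 for mitosis, 1.83 for DNA replication and -2.93 for immediate early genes.

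Inhibitors of the cell cycle went both ways. Of 22 inhibitors and G0 genes, 4 rose and 11 fell in UGE, with a median log2 difference of -1.14, and without UGE replicate 3 the number that fell was 7, as it was with Sca-1Lo replicates 1 and 2 alone. With Sca-1Lo replicates 3 and 4 alone 2 rose. *Cdkn1c* (p57), which is imprinted and restrains fetal growth, had 5877, 6538 and 5600.1 in UGE, against 576, 364, 1548 and 1487 in Sca-1Lo cells (7.19-fold higher, log2 difference 2.85 ± 0.52 SE, adjusted p = 0.00133). *Cdkn1a* (p21) was 3.58-fold higher, and *Cdkn2b* (p15) 4.43-fold higher. *Gas6*, the growth arrest-specific ligand of TAM receptors, had 257, 304 and 202 in UGE, against 3074, 2073, 4356 and 5027 in Sca-1Lo cells (13.7-fold lower, log2 difference -3.78 ± 0.47 SE, adjusted p = 6.28e-05). *Klf4*, a factor of differentiating epithelium, had 330, 611 and 431 in UGE, against 2234, 977, 7327 and 6527 in Sca-1Lo cells (7.21-fold lower), and *Txnip*, a thioredoxin inhibitor, was 3.33-fold lower. *Klf4* is also induced by stress, and its Sca-1Lo signals were highest on replicates 3 and 4. *Btg2*, an antiproliferative gene, was 6.26-fold lower, a call that was lost when any 1 of UGE replicates 1 or 3 or Sca-1Lo replicate 4 was left out (adjusted p = 0.0518 to 0.0643).

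Chromatin regulators were higher in UGE, 26 of 34 with 0 lower by limma, at a median log2 difference of 1.55. *Ezh2*, the methyltransferase of the polycomb repressive complex PRC2, had 2103, 2557 and 2799 in UGE, against 298, 228, 375 and 309.8 in Sca-1Lo cells (8.28-fold higher, log2 difference 3.05 ± 0.24 SE, adjusted p = 1.34e-06). *Hells*, a remodeler needed for DNA methylation, was 10.6-fold higher, *Uhrf1*, which guides the maintenance methyltransferase to replicated DNA, 11.4-fold higher and *Dnmt1*, that methyltransferase, 3.08-fold higher. *Tet1*, which oxidizes methylcytosine, was 8.48-fold higher. All 3 UGE arrays exceeded every Sca-1Lo array in 30 of the 34 genes, against 3807 of all 17149 genes. *Hells* and *Uhrf1* are also expressed with S phase.

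Oncofetal genes and targets of let-7 rose or missed the test. Of 14 genes, 7 rose and 0 fell by limma, with a median log2 difference of 2.15. The RNA-binding protein gene *Igf2bp1* had 2983, 3557 and 2795 in UGE, against 35.4, 30.7, 34 and 38.1 in Sca-1Lo cells (89.9-fold higher, log2 difference 6.49 ± 0.21 SE, adjusted p = 6.95e-10), and its relative *Igf2bp3* had 5943, 9614 and 6519 in UGE, against 151, 176, 184 and 149 in Sca-1Lo cells (43.8-fold higher, log2 difference 5.45 ± 0.26 SE, adjusted p = 2.39e-08). *Hmga2*, a chromatin protein of embryonic tissue and a target of the microRNA let-7, had 1687, 1069.7 and 1815 in UGE, against 49.5, 46.8, 48.9 and 28.6 in Sca-1Lo cells (35-fold higher, log2 difference 5.13 ± 0.34 SE, adjusted p = 3.43e-07). *Mycn*, the neural member of the Myc family, had 2912, 3786 and 4940.5 in UGE, against 51.9, 50.6, 67.9 and 85.1 in Sca-1Lo cells (60.7-fold higher, log2 difference 5.92 ± 0.57 SE, adjusted p = 8.12e-06). In each of these the lowest UGE array lay far above the highest Sca-1Lo array. *Lin28b*, the protein that blocks let-7 maturation, was at 8.58, 11.1 and 13.3 in UGE, against 15.8, 15.6, 14.6 and 20.3 in Sca-1Lo cells, near or below the floor in both groups.

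Imprinted genes of fetal growth rose in 9 of 21 cases and fell in 2, with a median log2 difference of 1.20. *Igf2*, the fetal growth factor, had 4894, 6748 and 5193 in UGE, against 109.6, 117, 149 and 144 in Sca-1Lo cells (43.2-fold higher, log2 difference 5.43 ± 0.37 SE, adjusted p = 4.24e-07), and 1 of its 2 probe sets was called. *Peg3*, a paternally expressed zinc finger gene, had 17645, 22779 and 24138 in UGE, against 217, 156, 227 and 232 in Sca-1Lo cells (104-fold higher, log2 difference 6.70 ± 0.62 SE, adjusted p = 5.23e-06). *Nnat*, a small membrane protein of developing tissue, had 2649.7, 1304 and 1011 in UGE, against 26.1, 20.8, 19 and 17.6 in Sca-1Lo cells (73.5-fold higher). Replicate 1 was the highest UGE array for *Nnat*, and the groups did not overlap. *Mest* varied widely within UGE, at 3036, 286 and 1482 in UGE, against 44.3, 35.6, 73.5 and 177 in Sca-1Lo cells (16.2-fold higher, log2 difference 4.01 ± 0.81 SE, adjusted p = 0.00291). The genes that fell were *Snrpn* (at least 2.5-fold) and *Phlda2* (2.53-fold), and *Phlda2* lost its call when any 1 of UGE replicates 2 or 3 or Sca-1Lo replicate 1 was left out (adjusted p = 0.057 to 0.0672).

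Among 35 developmental regulators of the urogenital tract and endoderm, 11 were higher and 1 lower, with a median log2 difference of 0.63, and 6 were higher with Sca-1Lo replicates 3 and 4 alone. *Grhl3*, a factor of surface epithelium and urothelium, had 1712, 3499.9 and 2038 in UGE, against 48.6, 21.7, 33.3 and 28.8 in Sca-1Lo cells (72.6-fold higher, log2 difference 6.18 ± 0.59 SE, adjusted p = 7.36e-06). *Sox11*, a SoxC factor of embryonic progenitors, had 2954, 3849 and 4014 in UGE, against 137, 112, 204 and 267 in Sca-1Lo cells (21-fold higher, log2 difference 4.39 ± 0.32 SE, adjusted p = 8.37e-07), and all 6 of its probe sets were called higher. *Isl1*, a LIM homeobox gene of the genital region, had 3586, 4044 and 3480.2 in UGE, against 391.5, 188, 976 and 1402 in Sca-1Lo cells (6.56-fold higher, log2 difference 2.71 ± 0.63 SE, adjusted p = 0.00696). Smaller differences were found for *Sox2*, at 2421, 3535 and 2751 in UGE, against 1072, 533, 1741 and 1284 in Sca-1Lo cells (2.7-fold higher), whose call was lost when any 1 of UGE replicates 1, 2 or 3 or Sca-1Lo replicates 1, 2 or 4 was left out (adjusted p = 0.0507 to 0.135). The basal regulator *Trp63* (p63) had 2407, 3820.4 and 3332 in UGE, against 1235, 739, 4313 and 3953 in Sca-1Lo cells, which overlapped (log2 difference 0.66, adjusted p = 0.573), and 1 of its 4 probe sets was called lower.

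Hedgehog genes gave a count that fell when any 1 of several arrays was left out. Of 19 measured, 6 were higher and 1 lower in UGE, with a median log2 difference of 0.13. The number higher was 3 without UGE replicate 1, 2 without UGE replicate 2 or 3, 2 without Sca-1Lo replicate 1, 3 without Sca-1Lo replicate 2 and 0 with Sca-1Lo replicates 3 and 4 alone, where 3 were lower. The difference of *Gli3* turned positive with the mean of its probe sets in place of the probe set of highest mean signal. *Shh*, the ligand made by the urogenital epithelium, had 6321, 8139.6 and 7606 in UGE, against 2195, 1153, 4285 and 4279.5 in Sca-1Lo cells (2.8-fold higher, log2 difference 1.49 ± 0.42 SE, adjusted p = 0.0196). The call was lost when any 1 of UGE replicates 2 or 3 or Sca-1Lo replicate 1 was left out (adjusted p = 0.0522 to 0.0731). The receptor gene *Ptch1* was 2.6-fold higher and the transducer gene *Smo* 3.11-fold higher, with adjusted p of 0.043 and 0.0465 by limma, and *Ptch1* lost its call when any 1 of UGE replicates 1, 2 or 3 or Sca-1Lo replicates 1 or 2 was left out (adjusted p = 0.0839 to 0.133), as *Smo* did when any 1 of UGE replicates 1, 2 or 3 or Sca-1Lo replicates 1 or 2 was left out (adjusted p = 0.0651 to 0.157). *Gli1*, the transcriptional target that reports the pathway, had 70, 40.7 and 57.5 in UGE, against 49.2, 34.3, 78.5 and 107 in Sca-1Lo cells and was not called (log2 difference -0.16). *Hhip*, a secreted inhibitor that binds the ligand, had 43.6, 8.78 and 23.5 in UGE, against 256, 175, 788 and 1424 in Sca-1Lo cells (22.8-fold lower, log2 difference -4.51 ± 0.88 SE, adjusted p = 0.00236), and all 4 of its probe sets were called lower.

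Wnt ligands were higher in 6 of 18 cases and lower in 0 by limma, with a median log2 difference of 0.24. With Sca-1Lo replicates 3 and 4 alone 3 were higher and 2 lower, and after scaling to the 75th percentile 5 were higher and 2 lower. The difference of *Wnt7a* turned positive with the mean of its probe sets in place of the probe set of highest mean signal. *Wnt6* had 1634, 2094 and 2174 in UGE, against 206, 212, 152 and 493 in Sca-1Lo cells (8.17-fold higher, log2 difference 3.03 ± 0.35 SE, adjusted p = 3.92e-05) and *Wnt10a* 300.4, 500 and 281 in UGE, against 31.5, 20, 43.2 and 51.4 in Sca-1Lo cells (10.1-fold higher, log2 difference 3.34 ± 0.37 SE, adjusted p = 2.47e-05). Both ligands are made by epithelia, and neither showed overlap between the groups. *Wnt7b* was 4.1-fold higher. *Wnt4* was 2.8-fold higher, a call lost when any 1 of UGE replicates 2 or 3 or Sca-1Lo replicates 1, 2 or 4 was left out (adjusted p = 0.0547 to 0.191). Of 37 receptors, transducers and antagonists, 9 were higher and 3 lower, with 4 higher against Sca-1Lo replicates 3 and 4 alone and 5 lower without UGE replicate 1. The receptor gene *Fzd3* had 1023, 1407 and 1232 in UGE, against 122, 155, 68.9 and 97.2 in Sca-1Lo cells (11.4-fold higher, log2 difference 3.51 ± 0.31 SE, adjusted p = 3.90e-06) and *Fzd6* was 3.67-fold higher. *Sfrp1*, a secreted antagonist that promotes growth of the prostate in the mouse, was 8.42-fold higher. The antagonist *Wif1* had 163, 147 and 279.9 in UGE, against 859.5, 679, 7288 and 9899.5 in Sca-1Lo cells (13.5-fold lower, log2 difference -3.76 ± 0.98 SE, adjusted p = 0.0138), and its call was lost without UGE replicate 2 (adjusted p = 0.0549). *Wif1* was far brighter on Sca-1Lo replicates 3 and 4, as was the stem cell receptor *Lgr5*, with 396, 679 and 564 in UGE, against 409, 237, 5412 and 6897 in Sca-1Lo cells, which was not called (log2 difference -1.37, adjusted p = 0.407). *Axin2*, a general target of the pathway, had 402, 453 and 905 in UGE, against 389, 390, 345 and 471 in Sca-1Lo cells and was not called (log2 difference 0.47).

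Other signalling families were mixed. Of 35 TGF-beta and BMP genes, 3 rose and 9 fell, and 5 fell when any 1 of UGE replicates 2 or 3 or Sca-1Lo replicates 3 or 4 was left out. Against Sca-1Lo replicates 1 and 2 alone 7 rose and 6 fell. *Smad3*, a transducer of TGF-beta, was 4.28-fold higher, *Bmp6* at least 8.44-fold lower and the activin antagonist *Fst* 19.9-fold lower. Of 26 FGF and EGF genes, 3 rose and 7 fell, and 4 fell without UGE replicate 2 or 3 and 2 with Sca-1Lo replicates 1 and 2 alone, where 5 rose. *Egf* had 29, 56 and 18.3 in UGE, against 1592, 1664, 411 and 310.1 in Sca-1Lo cells (24.6-fold lower, log2 difference -4.62 ± 0.76 SE, adjusted p = 0.000639). *Fgf7*, a ligand made by stroma, was at least 10.8-fold lower, and its receptor gene *Fgfr2* had 2309, 4439 and 4076 in UGE, against 944, 593, 2926 and 2865 in Sca-1Lo cells and was not called (log2 difference 1.24, adjusted p = 0.157). Notch genes gave 2 higher (*Notch3* and *Hes6*) and 3 lower (*Notch4*, *Dll1* and *Mfng*) of 22, with 0 higher without UGE replicate 2 and 1 without UGE replicate 3, and the ligand gene *Dll1* was 12.4-fold lower. The Notch shares of 9.09% higher and 13.6% lower lay near the 13.4% and 12.2% of all genes. Ephrins and Eph receptors gave 6 higher and 1 lower of 18, with a median log2 difference of 0.69. *Efnb2* had 3653, 4025 and 4369 in UGE, against 593, 439.8, 805 and 691 in Sca-1Lo cells (6.49-fold higher, log2 difference 2.70 ± 0.30 SE, adjusted p = 2.47e-05), *Efna5* was 6.1-fold higher and *Ephb3* 4.22-fold higher.

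Retinoid genes changed enzyme by enzyme. Of 19, 4 were higher and 3 lower, and 2 were higher without Sca-1Lo replicate 1, Sca-1Lo replicate 2 or UGE replicate 2. With all arrays the shares were 21.1% and 15.8%, against 13.4% and 12.2% of all genes. *Aldh1a1*, which makes retinoic acid in adult tissue, had 387, 593 and 418 in UGE, against 7322, 4167, 8565 and 9596 in Sca-1Lo cells (15.5-fold lower, log2 difference -3.95 ± 0.52 SE, adjusted p = 9.84e-05). *Aldh1a2*, the main embryonic enzyme for the same step, had 2201, 1264 and 986 in UGE, against 122, 84.7, 311 and 663 in Sca-1Lo cells (6.51-fold higher, log2 difference 2.70 ± 0.78 SE, adjusted p = 0.0232), but its call was lost when any 1 of UGE replicates 1 or 2 or Sca-1Lo replicates 1 or 2 was left out (adjusted p = 0.061 to 0.0763). *Crabp2*, which delivers retinoic acid to its receptors, had 446, 408 and 385 in UGE, against 9.27, 10.3, 27.7 and 40.7 in Sca-1Lo cells (at least 15.9-fold higher, log2 difference 4.51 ± 0.48 SE, adjusted p = 1.90e-05). *Cyp26b1*, which degrades retinoic acid, was 4.26-fold lower. Of 30 Hox genes, 3 were higher (*Hoxc10*, *Hoxd1* and *Hoxd3*) and 2 lower (*Hoxa3* and *Hoxb7*), named here after their values were seen. None was lower when any 1 of UGE replicates 1, 2 or 3 or Sca-1Lo replicates 1 or 2 was left out (0 by limma), and 1 was higher without UGE replicate 3. With Sca-1Lo replicates 1 and 2 alone 5 were higher, and with replicates 3 and 4 alone 1 was higher and 0 lower by limma. With all arrays the Hox shares of 10% higher and 6.67% lower lay below the 13.4% and 12.2% of all genes. The difference of *Hoxa3* turned positive with the mean of its probe sets. *Hoxd13*, of the distal urogenital tract, had 2218, 3299.8 and 2287 in UGE, against 899, 537, 3566 and 3165 in Sca-1Lo cells and was not called.

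Genes that define basal and luminal cells seldom passed the test. Of 18 basal genes, 1 was higher and 2 lower, and of 22 luminal and simple epithelial genes, 3 were higher and 1 lower, shares that lie near or below the 13.4% and 12.2% of all genes. The basal genes were *Sfn*, higher, and *Ngfr* and *Cd44*, lower, and the luminal genes were *Elf3*, *Spint1* and *Esrp1*, higher, and *Prom1*, lower. The basal count lower was 1 without UGE replicate 2 or 3 or Sca-1Lo replicate 1, 3 or 4, and the luminal count higher was 1 without UGE replicate 2 or 3 or Sca-1Lo replicate 4 and with Sca-1Lo replicates 1 and 2 alone. *Krt14* had 1034, 2128 and 1224 in UGE, against 1172, 877, 3538 and 3562 in Sca-1Lo cells (log2 difference -0.45, adjusted p = 0.735) and *Krt15* 10642, 11424 and 11266 in UGE, against 5524, 3472, 8456 and 7861 in Sca-1Lo cells (log2 difference 0.89, adjusted p = 0.213). The groups overlapped for *Krt14*, and all UGE arrays lay above the Sca-1Lo arrays for *Krt15*. *Krt18* had a log2 difference of 0.30 and *Cdh1*, the adhesion protein of epithelia, one of 0.86, with adjusted p of 0.68 and 0.089. Missing the threshold does not show that these levels were equal. *Cd44*, a hyaluronan receptor of basal cells, was lower, with 164, 73.3 and 175 in UGE, against 845, 567, 1633 and 1305 in Sca-1Lo cells (7.85-fold lower, log2 difference -2.97 ± 0.38 SE, adjusted p = 8.61e-05).

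Programs of stratified and urinary epithelium were higher. Of 31 genes of cornified envelope and squamous differentiation, 12 rose and 1 fell, with a median log2 difference of 0.71. *Tgm1*, the transglutaminase that crosslinks the envelope, had 664, 1042 and 611 in UGE, against 57.9, 34.5, 42.6 and 38.2 in Sca-1Lo cells (17.7-fold higher, log2 difference 4.14 ± 0.37 SE, adjusted p = 4.01e-06). *Lypd3*, a membrane protein of suprabasal layers, had 509, 678 and 596 in UGE, against 12.8, 23.4, 8.31 and 2.89 in Sca-1Lo cells (at least 28.4-fold higher, log2 difference 6.00 ± 0.72 SE, adjusted p = 4.58e-05). *Krt4*, a keratin of internal stratified epithelia, had 7097, 11660 and 9895 in UGE, against 2682, 1363, 3159 and 1429 in Sca-1Lo cells (4.64-fold higher, log2 difference 2.21 ± 0.36 SE, adjusted p = 0.000599), and *Sprr1a*, an envelope precursor, was 5.32-fold higher. Of 13 urothelial genes, 8 rose and 0 fell by limma, with a median log2 difference of 1.24. *Upk3a*, a uroplakin, had 934, 1842 and 1087 in UGE, against 39.2, 71.1, 13.4 and 13.6 in Sca-1Lo cells (46.1-fold higher, log2 difference 5.53 ± 0.57 SE, adjusted p = 1.26e-05), and *Upk3b* was at least 23-fold higher. Uroplakins *Upk1a* and *Upk1b* were not called, with log2 differences of 0.78 and 0.89. Sca-1Lo replicates 1 and 2 carried more *Upk3a* than replicates 3 and 4 and stayed well below UGE. Claudins and other genes of tight junctions gave 3 higher and 4 lower of 23, with 1 higher without UGE replicate 3 or Sca-1Lo replicate 2 or 3. With all arrays these shares were 13% and 17.4%, against 13.4% and 12.2% of all genes. The difference of *Cldn9* turned positive with the mean of its probe sets. *Cldn6*, of embryonic epithelium, had 1014, 909.9 and 975 in UGE, against 1.09, 0.666, 0.968 and 0.932 in Sca-1Lo cells (at least 48.3-fold higher, log2 difference 10.07 ± 0.54 SE, adjusted p = 6.14e-08), while *Cldn10* had 20.9, 21.5 and 8.21 in UGE, against 912, 945, 698 and 359 in Sca-1Lo cells (at least 32.8-fold lower, log2 difference -5.46 ± 0.70 SE, adjusted p = 8.90e-05) and *Cldn1* was 17.5-fold lower.

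Antigen presentation was low in UGE. Of 17 genes, 13 were lower and 0 higher by limma, with a median log2 difference of -3.28. *B2m*, the light chain of class I molecules, had 601, 472 and 522 in UGE, against 13400, 9057, 10736 and 10010 in Sca-1Lo cells (20.2-fold lower, log2 difference -4.34 ± 0.23 SE, adjusted p = 6.14e-08), and the class I heavy chain gene *H2-K1* had 171, 151 and 175 in UGE, against 5387, 3936, 4650 and 4859 in Sca-1Lo cells (28.3-fold lower, log2 difference -4.82 ± 0.24 SE, adjusted p = 2.93e-08). Within each group these signals varied little, and the groups lay far apart. The class II gene *H2-Aa* had 18, 9.58 and 5.83 in UGE, against 2015, 998, 336 and 291 in Sca-1Lo cells (at least 33.3-fold lower), and *Cd74*, its invariant chain, 21.6, 9.55 and 9.37 in UGE, against 1103, 537, 218 and 194 in Sca-1Lo cells (at least 19.4-fold lower). Class II signals were higher on Sca-1Lo replicates 1 and 2, the arrays that also had the higher leukocyte sums. The summed signal of 33 leukocyte genes was 4014, 3338 and 2925 in UGE, against 12514, 8624, 4071 and 3994 in Sca-1Lo cells, and the part of leukocytes in the class II signal was not tested. Of 30 interferon responsive genes, 24 were lower and 0 higher by limma, with a median of -2.83. *Irf7*, a regulator of the response, had 20.9, 28.6 and 11.9 in UGE, against 399, 389, 511 and 472 in Sca-1Lo cells (at least 19.2-fold lower, log2 difference -4.52 ± 0.30 SE, adjusted p = 3.43e-07), and *Ifit1* was 7.2-fold lower. The chemokine gene *Cxcl10* was 50.7-fold lower with a wide spread, at 51.2, 10.4 and 39.2 in UGE, against 367, 146, 10662 and 6624 in Sca-1Lo cells, and lost its call without UGE replicate 2 (adjusted p = 0.0577).

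Immediate early genes and other genes that respond to tissue dissociation were lower in UGE, 29 of 39 with 0 higher by limma and a median log2 difference of -2.93. The number was 21 with Sca-1Lo replicates 1 and 2 alone and 33 with replicates 3 and 4 alone. *Fos* had 548, 1229.5 and 1782 in UGE, against 7828, 5298, 9955 and 10484 in Sca-1Lo cells (7.63-fold lower, log2 difference -2.93 ± 0.37 SE, adjusted p = 7.51e-05), *Atf3*, a stress-induced factor, 44.6, 29.5 and 41.4 in UGE, against 2980.2, 1724, 17601 and 12561 in Sca-1Lo cells (153-fold lower, log2 difference -7.26 ± 0.71 SE, adjusted p = 9.18e-06) and the heat shock gene *Hspa1a* 202, 383 and 269 in UGE, against 7831, 3355, 10814 and 10321 in Sca-1Lo cells (26.7-fold lower, log2 difference -4.74 ± 0.42 SE, adjusted p = 3.64e-06). The groups did not overlap. *Fosb* was at least 43-fold lower and *Nr4a1*, an orphan nuclear receptor of the immediate early class, 40.9-fold lower. The summed signal of the list was 39397, 50044 and 47386 in UGE, against 119714, 64678, 241155 and 215876 in Sca-1Lo cells. Sca-1Lo cells were digested and sorted before lysis whereas UGE was not sorted on Sca-1, so handling and cell state cannot be told apart here.

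Markers of other cell types moved with the groups. All 26 endothelial genes were lower in UGE, with a median log2 difference of -4.83 (-4.52 with bounds), and all 26 stayed so with any 1 of the 7 arrays left out and with either pair of Sca-1Lo arrays. *Cdh5*, the cadherin of endothelial junctions, had 133, 14 and 24.1 in UGE, against 911, 902, 1308 and 1869.6 in Sca-1Lo cells (33.5-fold lower, log2 difference -5.07 ± 0.60 SE, adjusted p = 4.11e-05), and *Plvap*, of fenestrated vessels, had 88.1, 4.55 and 17.4 in UGE, against 1999, 1307, 3510.4 and 3342 in Sca-1Lo cells (at least 71.8-fold lower, log2 difference -6.94 ± 0.72 SE, adjusted p = 1.45e-05). The vascular growth factor receptor gene *Kdr* was 13.6-fold lower. The summed endothelial signal was 2162, 700.1 and 803 in UGE, against 17818, 16033, 34646 and 40894 in Sca-1Lo cells, and UGE replicate 1 was the highest UGE array. Smooth muscle and pericyte genes were lower in 12 of 18 cases and higher in 1 (*Notch3*), with a median of -2.96. *Tagln*, an actin-binding protein of smooth muscle, had 113, 20.2 and 32.3 in UGE, against 3738, 2338, 1236 and 4467 in Sca-1Lo cells (63-fold lower, log2 difference -5.98 ± 0.70 SE, adjusted p = 4.05e-05), and *Myh11*, its myosin, was 42.1-fold lower. The sum of these 18 genes was 7746, 6269.6 and 4843 in UGE, against 36861, 22503, 20147 and 41533 in Sca-1Lo cells.

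Fibroblast genes depended on which Sca-1Lo arrays were used. Of 32, 6 were lower in UGE and 0 higher by limma, with 3 lower against Sca-1Lo replicates 1 and 2 alone and 16 against replicates 3 and 4 alone. The number was also 3 without UGE replicate 2, UGE replicate 3 or Sca-1Lo replicate 4. The collagen gene *Col1a1* had 744, 118 and 244 in UGE, against 244, 147, 1153 and 2567 in Sca-1Lo cells, not called (log2 difference -1.04, adjusted p = 0.528). *Dpt*, a matrix protein of connective tissue, had 29.4, 34.7 and 12.8 in UGE, against 810.3, 332, 7982 and 10745 in Sca-1Lo cells (93.2-fold lower, log2 difference -6.54 ± 1.13 SE, adjusted p = 0.000946). Both genes were brightest on Sca-1Lo replicates 3 and 4. Leukocyte genes gave 1 higher (*Cx3cr1*) and 3 lower (*Cd52*, *Cd14* and *Cd3g*) of 33, and 1 lower without any 1 of the 3 UGE arrays or without Sca-1Lo replicate 1. With all arrays the shares of 3.03% and 9.09% lay below the 13.4% and 12.2% of all genes. The *Cx3cr1* call was lost with any 1 of the 7 arrays left out, and 0 leukocyte genes were higher with either pair of Sca-1Lo arrays. With Sca-1Lo replicates 3 and 4 alone 1 was lower. *Cd52* had 44, 29.9 and 24.6 in UGE, against 8162, 5082, 1250.3 and 1384 in Sca-1Lo cells (91.4-fold lower, log2 difference -6.51 ± 0.65 SE, adjusted p = 1.08e-05), and *Ptprc* (CD45) 43.2, 38.7 and 47.9 in UGE, against 168, 87.7, 135 and 131 in Sca-1Lo cells, not called. Nerve and glia genes were higher in 6 of 14 cases, in 5 without UGE replicate 1 and in 3 with Sca-1Lo replicates 3 and 4 alone. *Nefm*, a neurofilament, had 2076, 126 and 162 in UGE, against 0.872, 4.15, 0.877 and 2.31 in Sca-1Lo cells (at least 17.4-fold higher, log2 difference 7.73 ± 0.96 SE, adjusted p = 6.38e-05), and *Tubb3*, a neuronal tubulin, 3176, 63.1 and 58.7 in UGE, against 11.1, 9.5, 22.6 and 21.8 in Sca-1Lo cells (at least 10.8-fold higher). UGE replicate 1 lay far above the other UGE arrays in both. The embryonic globin gene *Hbb-y* had 5603, 14.8 and 984 in UGE, against 25.6, 22.4, 44.7 and 32.8 in Sca-1Lo cells, not called (adjusted p = 0.0593), and the glial factor *Sox10* had 98.4, 60.4 and 54.2 in UGE, against 97, 91.8, 54.4 and 53.6 in Sca-1Lo cells. Neuroendocrine genes gave 1 higher (*Ddc*) and 1 lower (*Grp*) of 14, and 0 higher and 3 lower without UGE replicate 1. Both shares were 7.14% with all arrays, below the 13.4% and 12.2% of all genes. Red blood cell genes gave 1 lower (*Alas2*) of 10, and 0 with either pair of Sca-1Lo arrays or with any 1 array except UGE replicate 1 left out. Their share lower was 10% with all arrays, against 12.2% of all genes. Genes of seminal vesicle and Wolffian duct gave 3 higher (*Emx2*, *Ret* and *Wnt9b*) and 6 lower of 11, with 1 higher without UGE replicate 1 or 3 or Sca-1Lo replicate 2 or 4. How far these other cell types carry the remaining differences was not tested.

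Biosynthetic programs split by pathway. Of 37 ribosome biogenesis genes, 17 were higher and 0 lower by limma, with a median log2 difference of 0.85, and 9 were higher without UGE replicate 2, 11 without UGE replicate 3 and 9 with Sca-1Lo replicates 3 and 4 alone. *Ncl* (nucleolin) had 4168, 4624 and 4979.9 in UGE, against 2249, 1238, 2424 and 2493 in Sca-1Lo cells (2.26-fold higher, log2 difference 1.18 ± 0.33 SE, adjusted p = 0.0208), a call lost when any 1 of UGE replicates 2 or 3 or Sca-1Lo replicate 2 was left out (adjusted p = 0.0538 to 0.0805). Glycolysis and glucose uptake genes were higher in 12 of 19 cases and lower in 0, with a median of 1.44. *Pkm*, the pyruvate kinase, had 5218, 6079.9 and 5922 in UGE, against 1906, 1681, 1516 and 1642 in Sca-1Lo cells (3.41-fold higher, log2 difference 1.77 ± 0.31 SE, adjusted p = 0.000997), *Ldha*, a lactate dehydrogenase subunit, was 2.44-fold higher and *Slc2a1*, the glucose transporter GLUT1, 2.93-fold higher. Oxidative phosphorylation genes gave 0 calls among 43 by limma, with a median log2 difference of 0.18, and at an unadjusted p under 0.05 lay 1 on the higher and 2 on the lower side. *Cox4i1*, a cytochrome oxidase subunit, had 7362, 9890.5 and 8164 in UGE, against 8310.4, 6379.6, 7354 and 7029.6 in Sca-1Lo cells (log2 difference 0.22) and *Sdha*, of complex II, a log2 difference of 0.31. Their standard errors of 0.27 and 0.31 set what these arrays could detect.

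Lipid, folding and defence genes completed the metabolic lists. Cholesterol and fatty acid synthesis genes were higher in 16 of 29 cases and lower in 1, but in 8 without UGE replicate 2 or 3, 10 without Sca-1Lo replicate 4 and 8 with Sca-1Lo replicates 1 and 2 alone. *Sqle*, squalene epoxidase, had 1865, 2837 and 2661 in UGE, against 708, 612, 444 and 493 in Sca-1Lo cells (4.35-fold higher, log2 difference 2.12 ± 0.31 SE, adjusted p = 0.000276), and *Scd1*, the desaturase that was lower, 195, 78.7 and 312 in UGE, against 2098, 1693, 997 and 1854 in Sca-1Lo cells (9.5-fold lower, log2 difference -3.25 ± 0.62 SE, adjusted p = 0.00196). Endoplasmic reticulum folding and secretion genes were lower in 12 of 29 cases and higher in 1 (*Ero1a*), with 5 lower without UGE replicate 3, 7 without UGE replicate 2, 6 without Sca-1Lo replicate 1 and 7 against Sca-1Lo replicates 3 and 4 alone. *Derl3*, of the degradation pathway, had 21.6, 31 and 16.7 in UGE, against 1698, 1948, 184 and 286 in Sca-1Lo cells (28.9-fold lower, log2 difference -4.85 ± 0.91 SE, adjusted p = 0.00168), while the chaperone *Hspa5* (BiP) had 4538, 5270.5 and 5639 in UGE, against 9591, 8022, 8268 and 7501 in Sca-1Lo cells and was not called (adjusted p = 0.106). Glutathione, metal and xenobiotic defence genes were lower in 17 of 37 cases and higher in 1 (*Txnrd1*), with a median of -1.07. *Sod3*, the extracellular superoxide dismutase, had 2.33, 2.55 and 2.47 in UGE, against 481, 236, 1344 and 1650.5 in Sca-1Lo cells (at least 35.4-fold lower, log2 difference -8.18 ± 0.73 SE, adjusted p = 4.01e-06), *Gpx3* 87.8, 44.9 and 37.2 in UGE, against 1524, 1606, 730.2 and 1592 in Sca-1Lo cells (24.6-fold lower) and *Gstm1* was 6.04-fold lower.

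Surface antigens used to enrich adult prostate stem cells differed in direction. Of 14 such genes, 3 were higher and 7 lower in UGE, with a median log2 difference of -1.44. *Kit*, the stem cell factor receptor, had 477, 551 and 648 in UGE, against 45.4, 44.5, 59.7 and 71.1 in Sca-1Lo cells (10.2-fold higher, log2 difference 3.36 ± 0.38 SE, adjusted p = 2.76e-05), and *Bcl2*, a survival protein counted with them, 3172, 5259 and 3589 in UGE, against 535, 316, 1053 and 1023 in Sca-1Lo cells (5.99-fold higher, log2 difference 2.58 ± 0.42 SE, adjusted p = 0.000644). *Cd34* had 114, 48.2 and 39.1 in UGE, against 646, 608, 2737 and 3817 in Sca-1Lo cells (23.7-fold lower, log2 difference -4.57 ± 0.62 SE, adjusted p = 0.000141). *Cd34* is also a marker of endothelium, whose sums moved with it. *Ly6e*, a relative of the Sca-1 gene, was 9.6-fold lower, and *Prom1* (CD133) 2.87-fold lower, with the *Prom1* call lost without UGE replicate 2 (adjusted p = 0.0583).

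The sex chromosomes separated the groups in part. *Xist*, the RNA of the inactive X chromosome, had 5069, 9983 and 8878 in UGE, against 96.7, 97.6, 89.3 and 89.4 in Sca-1Lo cells (82.2-fold higher, log2 difference 6.36 ± 0.25 SE, adjusted p = 3.02e-09). Y-linked genes were detected in both groups, with *Eif2s3y* at 339, 409.8 and 478 in UGE, against 843, 566, 1413 and 1296 in Sca-1Lo cells (2.39-fold lower) and *Uty* at 95.1, 70.2 and 96.1 in UGE, against 224, 195, 181 and 167 in Sca-1Lo cells (2.21-fold lower). *Eif2s3y* lost its call when any 1 of UGE replicates 1, 2 or 3 or Sca-1Lo replicates 1, 3 or 4 was left out (adjusted p = 0.0501 to 0.0899), and *Uty* without UGE replicate 2 (adjusted p = 0.0685). The Sca-1Lo samples were labelled male, and the sex of the embryos is not given. Each UGE array held both *Xist* and Y-linked signal, and whether the UGE samples pooled embryos of both sexes was not tested. Sex may thus be a further difference between the groups that cannot be told apart from age, region and sorting. Of 12 housekeeping genes, *Tfrc* was higher (7.66-fold) and the other 11 were not called. *Hprt* had 1354, 1386 and 1643 in UGE, against 1345, 1148, 1505 and 1367 in Sca-1Lo cells, a log2 difference of 0.12 ± 0.23 SE.

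**Figure D5:**
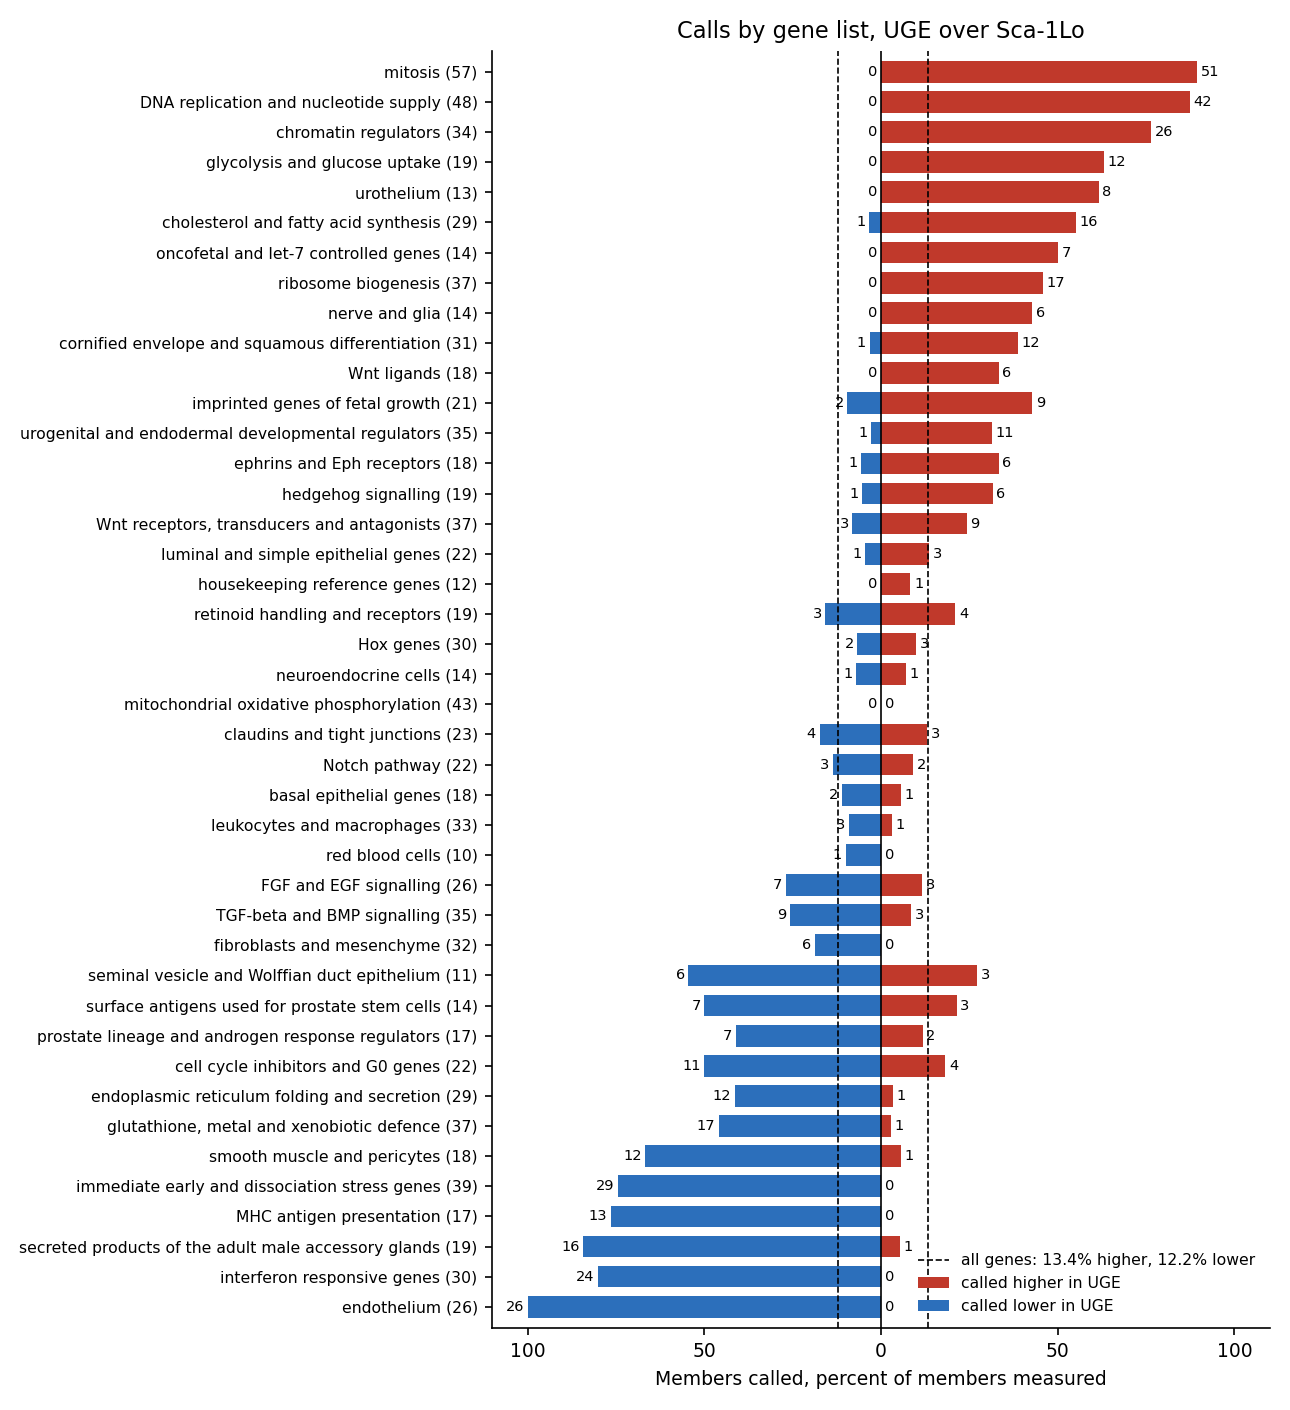
Share of measured members called higher (right) and lower (left) in UGE over Sca-1Lo for 42 gene lists, with the number of members called beside each bar and the number measured in brackets. Dashed lines mark the 13.4% and 12.2% of all genes called higher and lower. Mitosis, DNA replication and chromatin lists lie farthest to the right and endothelium farthest to the left.

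Few genes were called between Sca-1Lo and the other adult gates. Tested directly, Sca-1Lo differed from Sca-1Hi cells in 17 genes (0.0991%) and from Sca-1Neg cells in 430 (2.51%). The gates were compared without pairing, and the spread within Sca-1Lo limits what could be called. The log2 signals of Sca-1Lo replicate 3 correlated at 0.9675 with Sca-1Hi replicate 3 and at 0.872 with Sca-1Lo replicate 2. How pairing would change these counts was not tested, and a low count does not show that the gates were equal. Of the genes called higher in UGE, 9 were lower in Sca-1Lo than in Sca-1Hi cells. They included *Krt4*, with mean signals of 9328 in Sca-1Hi and 330.1 in Sca-1Neg cells beside the Sca-1Lo values given above, *Dapl1*, *Duox1*, *Duoxa1* and *Clca2*. Of the 2085 genes called lower in UGE, 142 were higher in Sca-1Lo than in Sca-1Neg cells and 28 lower. The same Sca-1Lo arrays enter both contrasts, so these counts are not independent of each other. Among the 142, those with the largest fall in UGE were *Slco4a1*, *Lcn2*, *Aqp1*, *Ctla2a*, *Plvap*, *Fabp4*, *Mmrn2* and *Cyp2f2*. None of these genes was called between Sca-1Lo and Sca-1Hi cells (adjusted p = 0.334 to 0.957, limma). *Lcn2*, an iron-binding lipocalin, had 3.6, 3.01 and 4.57 in UGE, against 1993, 972, 3025 and 2727 in Sca-1Lo cells (at least 100-fold lower, log2 difference -9.09 ± 0.42 SE, adjusted p = 1.74e-08). *Cyp2f2*, a cytochrome P450 of epithelia, had 100.4, 163 and 129.6 in UGE, against 4829, 3716, 9074 and 6789 in Sca-1Lo cells (44.9-fold lower, log2 difference -5.49 ± 0.49 SE, adjusted p = 4.09e-06). *Aqp1*, a water channel of vessels and other tissues, had 39.7, 17.1 and 18 in UGE, against 1608, 1114, 2181 and 3817 in Sca-1Lo cells (85.5-fold lower, log2 difference -6.42 ± 0.43 SE, adjusted p = 4.21e-07). *Aqp1*, *Plvap* and *Mmrn2* are expressed in endothelium, whose summed signal moved with them. The endothelial genes *Cdh5* and *Kdr*, and *Cd34*, were also among the 142. The part of endothelial cells in these values was not tested.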

How the data were processed

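RNA of 14 mouse samples was measured on Affymetrix MOE430 2.0 arrays, and the 3 UGE and 4 Sca-1Lo samples were compared. The deposited values are PLIER signals, an intensity on a linear scale that the authors computed in ArrayAssist, and the step that normalized between arrays is not given in the sources used here. Detection calls were not used. Here log2 of the signal was fitted with limma 3.58.1 in R 4.3.3 on the 4 groups of all 14 arrays, with Benjamini-Hochberg adjustment over 41031 probe sets, and a call took both a 0.05 limit on that p and more than a 1.75-fold difference. Probe sets that never exceeded a signal of 20 were left out, and each gene was read from its probe set of highest mean signal. The scripts were tested on simulated data. Of 45101 probe sets, 34945 carried 1 gene in the annotation, 932 several and 9160 none, so some genes, that of Sca-1 among them, were not analysed here. Named genes were the 12 with the largest change each way among genes whose groups did not overlap, up to 5 called members each way in each of 43 lists, and key members of the lists. Also named were up to 8 genes whose Sca-1Lo level was called as different from Sca-1Hi or from Sca-1Neg cells, not necessarily from both. The members and lists were chosen with earlier results of these data known. Promoter windows came from RefSeq (GRCm38.p6). The number of arrays limits the precision.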

Additional observations from a re-analysis of the deposited data

Results flagged for a closer look

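A Sca-1Lo array lay far from the other 3 for 14 of the 382 named genes (3.665%), where chance flags about 1 in 20 groups of samples, and 9 of these were replicate 2. Sca-1Lo replicate 2 was low for *Cbx2* (102.7), *Fasn* (892.5), *Fzd6* (829.9), *Ifitm3* (3089), *Krt6a* (765.7), *Ldhb* (485), *Ncl* (1238), *Peg3* (156.5) and *Srebf1* (1322). Sca-1Lo replicate 3 was low for *Gpx3* (730.2). Sca-1Lo replicate 4 was high for *Cdkn2b* (152.7) and *Etv4* (38.6), and low for *Cldn23* (210.1) and *Hmga2* (28.6). Of the 43 summed lists, Sca-1Lo replicate 2 was low for chromatin regulators (21940) and for glutathione, metal and xenobiotic defence genes (59848). Sca-1Lo replicate 2 was also the dimmest array of its group. Its 75th percentile over all probe sets was 213.9, against 250, 304.4 and 286.3 on replicates 1, 3 and 4. The part of array brightness in these flags was not tested. All values are PLIER signals.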

How the results depend on the processing

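The main counts were 4673 probe sets and 2300 genes higher and 4320 probe sets and 2085 genes lower in UGE. With Sca-1Lo replicates 3 and 4 alone 2814 probe sets and 1393 genes were higher. A test against the fold minimum gave 1212 probe sets and 634 genes higher, and 1457 and 812 lower. The 15% most variable probe sets followed by an analysis of variance and an unpaired test, a chain after the methods without their detection calls and SAM, gave 1454 and 729 higher, and 1259 and 693 lower. Array weights, whose fit did not reach its convergence tolerance, gave 8277 probe sets and 3647 genes lower. With 1 array left out, probe sets higher ranged from 2971 to 4645, genes higher from 1513 to 2253, probe sets lower from 2652 to 4270 and genes lower from 1349 to 2025, each lowest without UGE replicate 2 (higher) or 3 (lower). Centring on the 75th percentile moved the median of all probe sets to -0.22, against -0.04. With the replicate number as a block, 5789 probe sets were higher and 4662 lower. Deviations from the group means correlated at 0.0885, -0.388 and 0.128 for same-numbered samples of UGE and Sca-1Lo. For samples of different number they ranged from -0.417 to 0.419. Deviations within groups this small are tied to each other, so a shared batch cannot be told from these values. With the mean of a gene's probe sets, differences turned to 2.17 for *Cldn9*, 1.02 for *Gli3*, 0.13 for *Hoxa3* and 2.72 for *Wnt7a*; the cause was not tested. Of 286 named genes called, 230 kept the call with any 1 array left out and 172 under each of the 23 alternatives that tested them, of which the chain after the methods reached 181 of the 286.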
